A study of Mus musculus with 10 samples.

Results

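The small leucine-rich proteoglycans lumican (Lum), decorin (Dcn), biglycan (Bgn), fibromodulin (Fmod), osteoglycin (Ogn), prolargin (Prelp) and asporin (Aspn) were followed in mouse aortic arch by taking the probes that the platform annotation names for these 7 genes. Each of 6 genes had 1 probe, and Prelp was not analysed here. All 6 gave values on all 10 arrays and were among the 4299 genes tested. Mice lacking both apolipoprotein E and MyD88 (ApoE-/-, MyD88-/-, here double-null) were compared with mice lacking apolipoprotein E alone (ApoE-/-, here apoE-null), so the missing apolipoprotein E, which leaves mice with high plasma cholesterol and arterial plaques, is common to both groups. MyD88 is the adaptor through which interleukin-1 receptors and most Toll-like receptors signal. The labels of 8 of the 10 arrays state 8 weeks of high fat diet, and the other arrays hold the same mice. The sources used here give neither strain nor age, nor say whether the deletions act in all cells.

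Each array compared 1 double-null mouse with 1 apoE-null mouse, and the 5 such mouse pairs were each run 2 times with the dyes exchanged. The mice of pair 1 were female and those of pairs 2, 3 and 4 male. In pair 5 the double-null mouse was male and the apoE-null mouse female. In pair 1 the mouse numbers are attached to opposite genotypes on its arrays, and the labelled genotypes were used. Connective tissue had been cleaned from the vessels, per the labels. Values are log2 ratios of double-null over apoE-null, so that a negative value is less transcript in double-null aorta, and they hold no absolute level of any gene. Arrays gave between 4581 and 7057 values for 13872 probes. Myd88 itself fell: its log2 ratio, below 0 on 10 of 10 arrays, averaged -0.90 ± 0.22 (SD, n = 5 pairs, limma adjusted p = 0.0269). Its adjusted p was between 0.0558 and 0.124 when any 1 pair was left out.

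Small leucine-rich proteoglycans are secreted proteins whose leucine-rich repeats form a curved scaffold that binds collagen fibrils and sets their width and spacing. In the artery wall they are made mainly by smooth muscle cells and fibroblasts, and those that carry glycosaminoglycan chains can hold lipoproteins in the intima. Decorin and biglycan also bind transforming growth factor β, and when released from the matrix they can act on Toll-like receptors of macrophages, whose signal passes through MyD88. Decorin, biglycan and asporin form one class of the family, lumican, fibromodulin and prolargin another, and osteoglycin belongs to neither.

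In gene order the family is clustered. By the RefSeq annotation of GRCm38.p6, Dcn and Lum are direct neighbours on chromosome 10, and the family genes Kera and Epyc come next. Aspn, Omd and Ogn follow each other on chromosome 13 after Ecm2, Prelp and Fmod are neighbours on chromosome 1, and Bgn lies on the X chromosome. The RefSeq promoter table, of the same assembly, matched 4 of the 6 measured genes, Bgn, Fmod, Ogn and Aspn, and did not match Lum and Dcn. The 250 bases before the transcript start of these 4 genes are printed 5′ to 3′ because Ogn and Aspn come from one locus. Their pair means shared a sign in 3 of 5 pairs, as given further on. A link between the sequences and the ratios was not tested. Capitals mark matches to CANNTG (the E-box) or TATAAA on either strand.
Bgn, chrX:73483351-73483600, + strand: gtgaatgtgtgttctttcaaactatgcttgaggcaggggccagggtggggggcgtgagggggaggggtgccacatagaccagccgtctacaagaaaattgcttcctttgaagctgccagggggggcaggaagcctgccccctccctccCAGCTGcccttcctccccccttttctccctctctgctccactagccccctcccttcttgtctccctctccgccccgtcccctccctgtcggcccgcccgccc
Fmod, chr1:134037004-134037253, + strand: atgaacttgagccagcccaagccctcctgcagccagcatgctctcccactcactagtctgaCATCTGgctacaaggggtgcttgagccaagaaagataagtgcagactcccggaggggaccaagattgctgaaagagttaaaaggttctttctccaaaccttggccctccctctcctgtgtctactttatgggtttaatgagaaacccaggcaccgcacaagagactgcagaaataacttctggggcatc
Ogn, chr13:49607765-49608014, + strand: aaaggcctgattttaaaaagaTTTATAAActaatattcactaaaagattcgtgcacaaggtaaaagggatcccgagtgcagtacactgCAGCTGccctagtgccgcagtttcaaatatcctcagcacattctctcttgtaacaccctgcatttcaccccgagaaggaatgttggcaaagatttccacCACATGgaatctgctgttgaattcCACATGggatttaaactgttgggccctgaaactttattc
Aspn, chr13:49544193-49544442, + strand: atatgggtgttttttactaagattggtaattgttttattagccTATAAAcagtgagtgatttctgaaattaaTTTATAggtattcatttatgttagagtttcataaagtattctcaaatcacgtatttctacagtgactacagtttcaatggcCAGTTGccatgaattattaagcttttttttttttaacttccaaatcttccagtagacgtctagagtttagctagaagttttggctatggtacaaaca
CANNTG occurred once in the windows of Bgn, Fmod and Aspn and 3 times in that of Ogn, and 66.2% of all 32851 promoter windows of this length hold it. TATAAA, which 12.4% of windows hold, occurred in the AT-rich windows of Ogn and Aspn, 2 times in each. The matches in Ogn overlap each other, and all 4 lie between positions -229 and -173 from the start. No match was found on either strand to an NF-κB motif (GGG, any 5 bases, CC, in 45.8% of all windows), TGANTCA (AP-1, 6.75%) or CAGACA (SMAD, 17.1%). The G and C content was 64.4% in Bgn, 51.2% in Fmod, 42% in Ogn and 30% in Aspn, against a median of 52.4% over all windows.

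Lumican was the member with the lowest mean ratio and the only one below 0 on every array. Lum (Entrez Gene 17022) encodes a keratan sulphate proteoglycan that binds fibrillar collagen. With double-null RNA in channel 1 its log2 ratios were -1.07, -0.87, -0.49, -0.35 and -0.33 in pairs 1 to 5. With double-null RNA in channel 2 they were -1.26, -1.43, -0.0036, -0.80 and -0.30. The female pair 1 and the male pair 2 were the lowest, and 1 array of pair 3 was at 0 to 2 decimals. The pair means were -1.16, -1.15, -0.25, -0.58 and -0.32, a 2.24-fold lower level in pair 1 and 1.19-fold in pair 3. The mean was -0.69 ± 0.44 (SD, n = 5 pairs), or 1.61-fold lower, with a 95% interval from -1.08 to -0.30. Adjusted over all genes it did not pass (limma adjusted p = 0.172), and 84 of the 4299 genes had a smaller p. Of genes with 10 values, 0.908% were below 0 on all 10 arrays and 1.35% had one sign on all 10. Of genes with 5 pair values, 6.42% were below 0 in all 5. A mean below that of Lum was found for 0.837% of all genes. Without pair 1, whose mouse numbers are at odds, the mean was -0.57 (adjusted p = 0.406). RNA from whole tissue cannot tell fewer lumican-producing cells from less lumican transcript per cell. Lumican was far down the list of genes in pairs 1, 2 and 4, where 2.58%, 0.903% and 4.79% of genes had a lower ratio, and less so in pairs 3 and 5, at 18.9% and 16.2%.

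**Figure D1:**
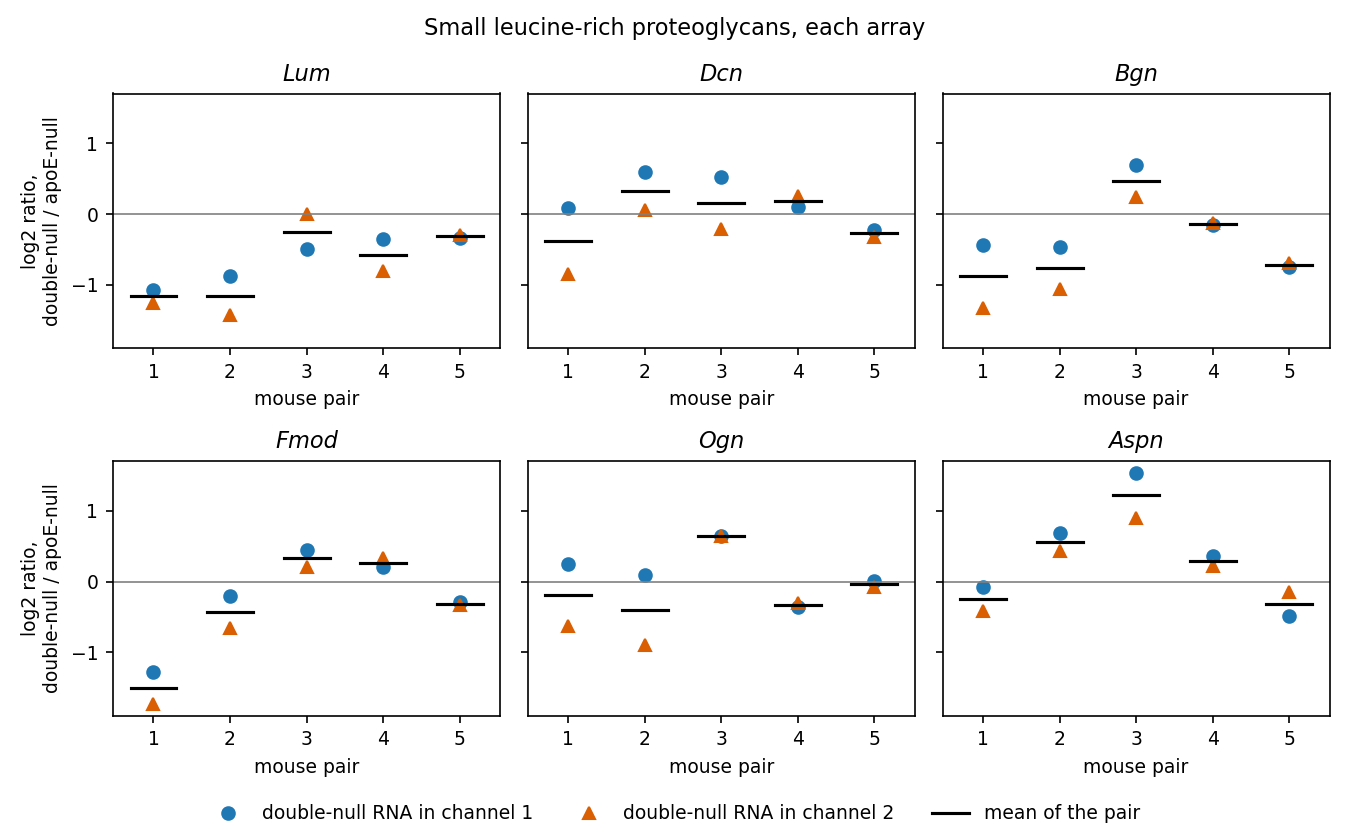
Log2 ratio of double-null over apoE-null (vertical axis) of the 6 measured small leucine-rich proteoglycans in mouse pairs 1 to 5 (horizontal axis); circles are arrays with double-null RNA in channel 1, triangles arrays with it in channel 2, and bars the mean of the pair. Lum lies below 0 throughout, from -1.43 to -0.0036, whereas the other 5 genes have pairs on both sides of 0.

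None of the 6 measured members passed the test. limma called 0 of 6, against 35 of 4299 genes (0.814%), of which 8 were lower (0.186%) and 27 higher (0.628%). At an unadjusted p under 0.05 there was 1 of 6, Lum, which was lower, against 9.47% of all genes in either direction and 5.44% lower. The member means ran from -0.69 to 0.30 and had a median of -0.19, beside a median of -0.04 over all genes. Means of 4 members were below 0 and of 2 above, and 58.3% of all genes were below 0. Each of the 5 members other than Lum had a 95% interval that spans 0.

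**Figure D2:**
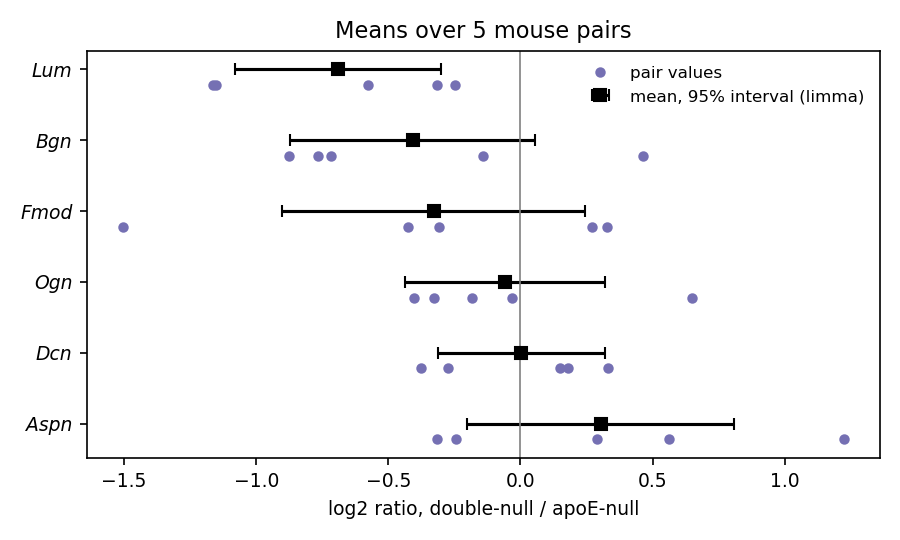
Mean log2 ratio of double-null over apoE-null (horizontal axis) of each member, with squares for the mean over 5 mouse pairs, bars for the 95% interval from limma and circles for the 5 pair values. The interval of Lum, -1.08 to -0.30, lies below 0, and those of Bgn, Fmod, Ogn, Dcn and Aspn include 0; Lum did not pass after adjustment over all genes.

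**Figure D3:**
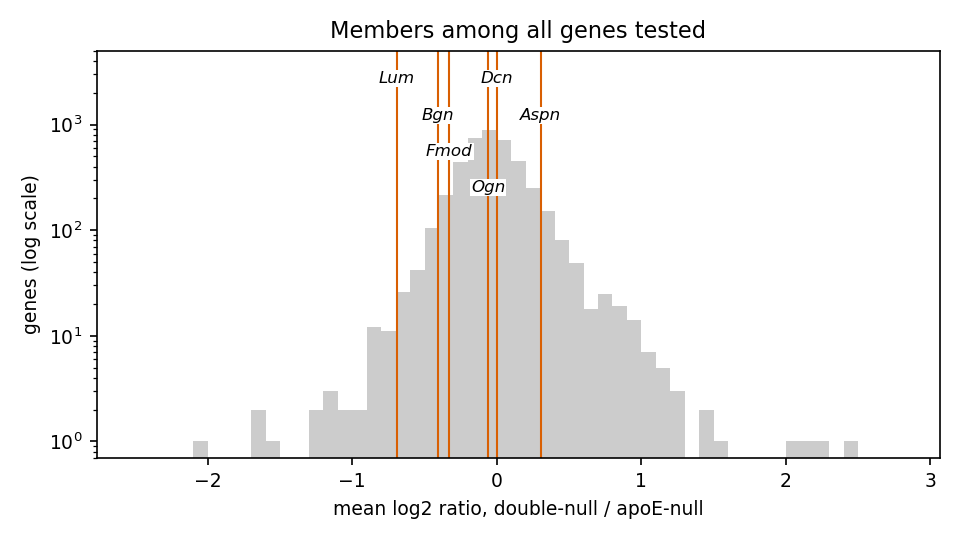
Number of genes (vertical axis, log scale) by mean log2 ratio of double-null over apoE-null (horizontal axis, bins of 0.1) for the 4299 genes tested, with vertical lines at the 6 members. Lum, at -0.69, lies in the left flank, and Ogn (-0.06) and Dcn (0.0034) lie in the centre.

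Fibromodulin, the other measured member of lumican's class, competes with it for a collagen site and was the most variable member between pairs. Fmod (Entrez Gene 14264) had pair means of -1.50, -0.43, 0.33, 0.27 and -0.31 in pairs 1 to 5. Both arrays of each pair had one sign. The log2 difference between them, channel 2 minus channel 1, was -0.46, -0.45, -0.25, 0.13 and -0.05 in pairs 1 to 5. In pair 1 it was 2.84-fold lower, the lowest of any member in any pair, and 0.724% of genes had a lower ratio there. Its mean was -0.33 ± 0.74 (SD, n = 5 pairs, 95% interval -0.90 to 0.25, limma adjusted p = 0.662). This spread was larger than that of 94.5% of genes with values in 5 pairs, whose median SD was 0.30. In the 3 male pairs alone the mean was 0.06, and it was -0.03 without pair 1.

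Of the members of decorin's class, biglycan was lower in 4 of 5 pairs, decorin had a mean near 0 and asporin had the highest mean of the family. Bgn (Entrez Gene 12111), which carries chondroitin or dermatan sulphate chains, had pair means of -0.88, -0.77, 0.46, -0.14 and -0.72. Only pair 3 was above 0, on both of its arrays (0.69 and 0.24). The mean was -0.41 ± 0.56 (SD, n = 5 pairs, 95% interval -0.87 to 0.06) and did not pass (limma adjusted p = 0.546). Without pair 3 it was -0.62 (adjusted p = 0.207), and in the 3 male pairs alone it was -0.15 (adjusted p = 0.909). As an X-linked gene it was read in pair 5 between a male and a female mouse, and without that pair the mean was -0.33.

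Dcn (Entrez Gene 13179), which carries a single such chain, had pair means of -0.38, 0.33, 0.15, 0.18 and -0.27 in pairs 1 to 5, below 0 in pairs 1 and 5 and above it in the male pairs. Its mean was 0.0034 ± 0.31 (SD, n = 5 pairs, limma adjusted p = 0.993), with a 95% interval from -0.31 to 0.32. In pairs 1 and 3 its arrays had opposite signs, 0.09 and -0.84 in pair 1 and 0.52 and -0.22 in pair 3.

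Aspn (Entrez Gene 66695), which has a stretch of aspartate residues in place of the chain-bearing site and binds collagen and calcium, had pair means of -0.24, 0.56, 1.22, 0.29 and -0.32. It was above 0 on both arrays of each male pair and below 0 on both arrays of pairs 1 and 5. The value of pair 3, 2.33-fold higher in double-null aorta, was exceeded by few genes, since 99.7% had a lower ratio there. The mean was 0.30 ± 0.63 (SD, n = 5 pairs, 95% interval -0.20 to 0.81, limma adjusted p = 0.649). In the male pairs alone it was 0.69 (adjusted p = 0.199), and without pair 3 it was 0.07.

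Osteoglycin, also called mimecan, binds collagen fibrils and had a mean near 0. Ogn (Entrez Gene 18295) had pair means of -0.19, -0.40, 0.65, -0.33 and -0.03. Pair 3 alone was above 0, with 0.65 on both arrays. Its mean was -0.06 ± 0.42 (SD, n = 5 pairs, 95% interval -0.44 to 0.32, limma adjusted p = 0.910). On the arrays of pairs 1 and 2 the sign followed the dye orientation, with 0.25 and 0.09 for double-null RNA in channel 1 and -0.62 and -0.89 for channel 2, and in pair 5 both arrays were near 0 (0.01 and -0.08). Its neighbours on chromosome 13 differed in part. Osteomodulin (Omd), a keratan sulphate member of the family that was the only other family gene with enough values, had pair means of -0.37, -0.76, 0.53, -0.46 and -0.27 (mean -0.26 ± 0.48, SD, n = 5 pairs, limma adjusted p = 0.627). Ogn and Omd had the same sign in 5 of 5 pairs, and Aspn shared it with each of them in 3 of 5, the exceptions being the male pairs 2 and 4. On the array there were also Epyc, with 6 array values, Chad, with 4, and Kera and Ecm2, with 0 each.

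The family varied more from mouse pair to mouse pair than its median lay from 0. In pairs 1 and 5, the pairs with a female apoE-null mouse, all 6 members were below 0, against 57.8% and 56.6% of all genes. In pair 3, 5 of 6 were above 0 and Lum alone was below, where 50.3% of all genes were below 0. In pair 2 there were 4 of 6 below 0, against 53.4% of genes, and in pair 4 there were 3 of 6, against 55.2%. The member median was -0.63, -0.41, 0.40, 0.02 and -0.31 in pairs 1 to 5, with an SD of 0.40 between pairs. Without pair 1, the means of the members were -0.57 for Lum, -0.29 for Bgn, -0.03 for Fmod, -0.03 for Ogn, 0.10 for Dcn and 0.44 for Aspn. Within a pair the members still spread over a log2 range of between 0.69 (pair 5) and 1.71 (pair 2). The SD between pairs exceeded that of 77.9% of genes with 5 pair values for Lum, 88.1% for Bgn, 91.2% for Aspn and 94.5% for Fmod, and of 51.6% and 74.5% for Dcn and Ogn.

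The order of the members was partly kept within pairs. Lum read below Dcn, from the same stretch of chromosome 10, in 5 of 5 pairs, by -0.69 ± 0.54 on the log2 scale (SD, n = 5 pairs), with a difference of -0.04 in pair 5. It also read below Ogn in 5 of 5 pairs (-0.63 ± 0.34) and below Aspn in 5 of 5 (-0.99 ± 0.66), although in pair 5 Lum and Aspn differed by less than 0.001. Bgn read below Aspn, a member of its own class, in 5 of 5 pairs, by -0.71 ± 0.37 (SD, n = 5 pairs). These 4 were the differences of one sign throughout among the 15 pairings of members. They are given as descriptions, since they were picked from all 15 and were not tested. Neighbours in the order of means differed by less than the SD of their difference, with Bgn minus Fmod at -0.08 ± 0.46 and Dcn minus Ogn at 0.06 ± 0.53.

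Dye orientation left no called effect on the members. The ratio was lower with double-null RNA in channel 2 than in channel 1 for all 6 members, against 49% of all genes. The log2 difference between orientations, divided by 2, ran from -0.22 (Dcn) to -0.07 (Lum). limma called a dye effect in 0 of 6 members, against 4.82% of all genes, with adjusted p between 0.202 (Dcn) and 0.707 (Lum). At an unadjusted p under 0.05 there was 1 of 6, Dcn, against 21.2% of all genes. Orientation means of Lum were -0.62 and -0.76, of Bgn -0.22 and -0.59, of Fmod -0.22 and -0.44, and of Aspn 0.41 and 0.20, each of one sign. Those of Dcn (0.22 and -0.21) and Ogn (0.13 and -0.25) had opposite signs. The arrays of a pair had one sign in 5 of 5 pairs for Lum, Bgn, Fmod and Aspn, in 3 of 5 for Dcn and in 2 of 5 for Ogn, where the median over genes with 10 values was 3.

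The female pair 1 had the lower value of each member when set against the mean of male pairs 2, 3 and 4, as had 56.6% of 3336 genes. Sex cannot be told apart here from this single pair, whose mouse numbers are at odds. The difference was -1.56 for Fmod (-1.50 against 0.06), -0.93 for Aspn (-0.24 against 0.69) and between -0.73 and -0.16 for the other 4. In a limma fit whose spread comes from 3 pairs, 0 of 6 passed at adjusted p under 0.05, against 0.21% of genes. Fmod and Aspn had an unadjusted p under 0.05, 2 of 6 against 16.2% of genes.

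Genes that work with the family showed no called decrease. Counts for these and the following lists stand beside 58.3% of all genes with a mean below 0 and 0.814% called. At that rate a short list with 0 called is not set apart from other genes. Of 17 measured fibrillar collagens and fibril partners, 1 rose, 0 fell and 16 did not pass, with 12 below 0 and a median of -0.15. Col1a1, the main collagen of the fibrils that lumican and decorin bind, had a log2 ratio of -0.34 ± 0.43 and Col3a1 -0.20 ± 0.34 (SD, n = 5 pairs, limma adjusted p = 0.540 and 0.652); both were named after their values were seen. The gene that rose was Loxl2, a collagen crosslinking oxidase, at 0.86 ± 0.30 (SD, n = 5 pairs, adjusted p = 0.0368). Loxl2 carried a dye effect, with orientation means of -0.58 and 2.29. Its call was lost without any 1 pair (adjusted p between 0.0558 and 0.135) and with single arrays and the mouse pair as a replicate block (adjusted p = 0.597). The pair medians of this list, -0.48, -0.09, 0.18, 0.02 and -0.28, had the signs of the member medians in 5 of 5 pairs. This held for 4 of the 14 lists beside the members (collagens, receptors, other proteoglycans and cartilage markers), and 7 more shared the sign in 4 of 5 pairs. All lists come from the same mice, so this is a description and is not particular to the collagens.

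Of the enzymes that build glycosaminoglycan chains, 3 of 31 listed genes were measured and 0 passed. Ugdh, which makes the glucuronate donor, had a log2 ratio of -0.31 ± 0.29 and Papss1, which makes the sulphate donor, 0.11 ± 0.34 (SD, n = 5 pairs, limma adjusted p = 0.521 and 0.781). Of 9 measured genes listed for the transforming growth factor β pathway 0 passed, and 7 were below 0 (median -0.26). Its receptors Tgfbr1 and Tgfbr2 had 0 array values, and its ligand Tgfb1 had too few to be tested. Smad7, an inhibitor of that pathway, had -0.42 ± 0.44 and Tgfbi, a secreted protein it induces, -0.40 ± 0.33 (SD, n = 5 pairs, adjusted p = 0.504 and 0.443). Of 7 measured receptors of soluble family members 0 passed, and 6 were below 0 (median -0.23). Tlr2, a receptor of biglycan, had -0.47 ± 0.13 and Lrp1, an endocytic receptor of decorin, -0.43 ± 0.39 (SD, n = 3 pairs, adjusted p = 0.428 and 0.532). Orientation means of Tlr2, over its 8 array values, were -0.10 and -0.91 (limma dye effect, adjusted p = 0.0827). Tlr4, the other Toll-like receptor of biglycan, was at -0.05 ± 0.42 (SD, n = 5 pairs, adjusted p = 0.929) and was named after its value was seen.

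Of 9 measured matrix proteases and inhibitors 0 passed, and 7 were below 0 (median -0.25). The stromelysin Mmp3 had -0.52 ± 0.42 (SD, n = 4 pairs, limma adjusted p = 0.443) and the membrane-bound Mmp14 -0.41 ± 0.44 (SD, n = 5 pairs, adjusted p = 0.507). Without pair 1 they were at -0.32 and -0.23. Of 11 other proteoglycan and hyaluronan genes 0 passed, and 7 were below 0 (median -0.07). The hyaluronan synthase Has1 had 0.55 ± 0.35 (SD, n = 4 pairs, adjusted p = 0.305) with a dye effect (orientation means -1.09 and 2.19), and the chondroitin sulphate proteoglycan Ncan -0.22 ± 0.14 (SD, n = 5 pairs, adjusted p = 0.541).

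Smooth muscle markers had pair medians of the same sign as the proteoglycans in all pairs but pair 4, where both were near 0. This is not particular to them, since 7 of the 14 lists, the fibroblast and adventitial markers included, shared the sign in 4 of 5 pairs. A further 4 lists shared it in 5 of 5. Of 7 measured smooth muscle markers 0 passed and 6 were below 0 (median -0.20). Their pair medians were -0.51, -0.36, 0.32, -0.02 and -0.37. Below 0 were 7 of 7 in pair 1 and 0 of 7 in pair 3, against 57.8% and 50.3% of all genes. Smtn had a log2 ratio of -0.23 ± 0.28 and Actg2 -0.32 ± 0.43 (SD, n = 5 pairs, limma adjusted p = 0.581 and 0.558). Of 13 measured fibroblast and adventitial markers 0 passed, 8 were below 0 and 5 above (median -0.08). Their pair medians were -0.24, -0.01, -0.03, 0.20 and -0.25. Among them Dpt, a matrix protein that binds decorin, had -0.30 ± 0.29 (SD, n = 5 pairs, adjusted p = 0.521) and the transcription factor Tcf21 -0.53 ± 0.41 (SD, n = 4 pairs, adjusted p = 0.409), the latter with a dye effect. Dpt and Tcf21 were the 2 with the smallest p. The markers above 0 included Gsn and Mfap5, each at 0.22 and named after their values were seen. The part of smooth muscle and fibroblast content in the proteoglycan ratios was not tested.

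**Figure D4:**
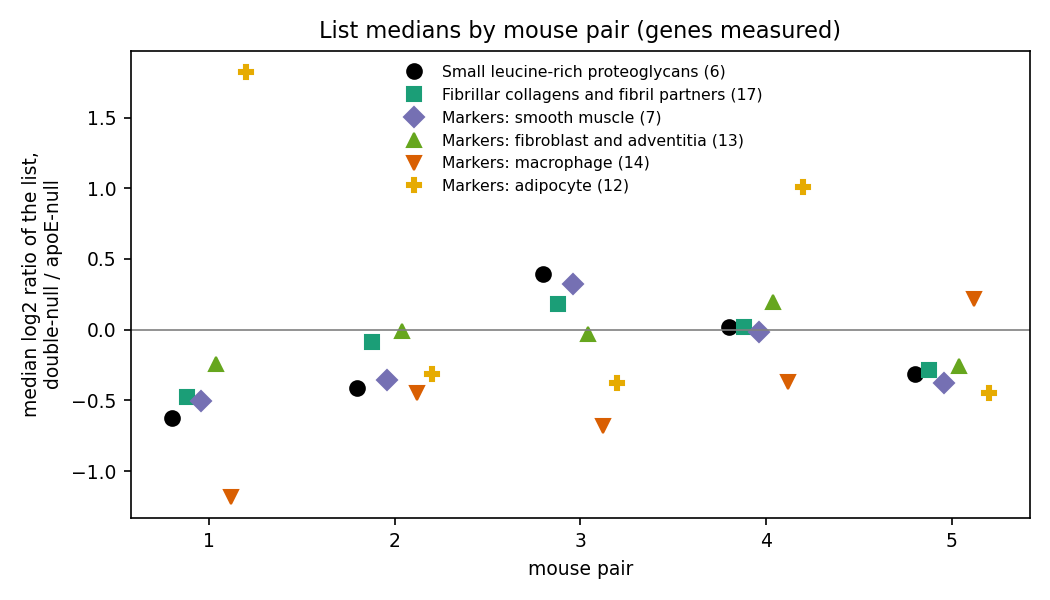
Median log2 ratio of double-null over apoE-null (vertical axis) of 6 gene lists in mouse pairs 1 to 5 (horizontal axis), with the number of genes measured in brackets. The proteoglycans, fibrillar collagens and smooth muscle markers are above 0 in pair 3 (0.40, 0.18 and 0.32) and below 0 in pairs 1, 2 and 5, while the adipocyte markers are high in pairs 1 and 4 (1.82 and 1.01).

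Macrophage and adipocyte markers had the sign of the proteoglycan median in 2 and 3 of 5 pairs. All 14 measured macrophage markers had means below 0 (median -0.50), against 58.3% of all genes, and 0 passed. Their pair medians were -1.18, -0.45, -0.68, -0.37 and 0.21. Pair 3, where most proteoglycans were above 0, had 13 of 13 macrophage markers below 0, against 50.3% of all genes. Pair 5, where all 6 proteoglycans were below 0, had 3 of 12, against 56.6% of all genes. The lysozyme gene Lyz2 had -0.81 ± 0.54 (SD, n = 5 pairs, limma adjusted p = 0.168) and passed without pair 5 (-1.04, adjusted p = 0.0383). C1qa, of complement, had -0.87 ± 0.41 (SD, n = 3 pairs, adjusted p = 0.195). Adipocyte markers had pair medians of 1.82, -0.31, -0.38, 1.01 and -0.45, with 10 of 12 means above 0 and 0 passing. Adipoq was at 0.65 ± 1.19 and Lpl at -0.42 ± 0.58 (SD, n = 5 pairs, adjusted p = 0.589 and 0.541). Without pair 1 Adipoq was at 0.21, and without pair 2 Lpl was at -0.22. Pairs 1 and 2, which had the lowest lumican, had adipocyte medians of opposite sign. These pairs were picked by their lumican values, and the part of macrophage and adipocyte content in the proteoglycan ratios was not tested.

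Of 7 endothelial markers 0 passed (median -0.05), and their pair medians were -0.16, 0.01, 0.09, 0.12 and -0.02. Among them were the tight junction gene Cldn5 at 0.28 ± 0.22 and Egfl7 at -0.14 ± 0.20 (SD, n = 5 pairs, limma adjusted p = 0.521 and 0.677). Cartilage, which is rich in these proteoglycans, had 2 of 12 listed markers measured, Comp (-0.19 ± 0.64) and Matn1 (0.10 ± 0.50, SD, n = 5 pairs, adjusted p = 0.756 and 0.863), whose pair medians were -0.32, -0.14, 0.12, 0.24 and -0.14. Of 11 striated muscle markers 4 were measured and 0 passed, among them Myl1 (0.31 ± 0.72, SD, n = 3 pairs) and Actc1 (-0.45 ± 0.33, SD, n = 4 pairs, adjusted p = 0.715 and 0.453). Pair medians of the 4 were -0.93, 1.86, -0.30, 0.26 and -0.10. Myl1 and Actc1 had no value in pair 2. The median there rests on Tnni3 (1.88) and Myh6 (1.85), both named after their values were seen.

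The genes most like the family median over the 10 arrays, of 3187 ranked by Pearson's r, were Csn3 (0.948), Arhgap23 (0.948), Tmem234 (0.928), Tmed3 (0.925) and Ube3a (0.921). The 10 arrays come from 5 mouse pairs and are not independent, and these 5 were picked as the highest of all ranked genes. None of the 5 was called, with means between -0.42 (Tmem234) and -0.05 (Arhgap23).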

How the data were processed

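The authors deposited a log2 ratio per probe for 10 two-colour arrays, apoE-null over double-null per the labels' titles. Per the labels, scanning used a GenePix 4000B, quantification GenePix Pro and analysis GeneSpring. The sources used here do not give the normalization, the meaning of blank cells (49.1% to 67.0% of an array) or signal over background. The number of arrays limits the precision.

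Signs were turned to double-null over apoE-null. The dye-swapped arrays of each mouse pair were averaged into 1 replicate where both had a value. Probes with at least 3 pair values were kept and averaged by gene (4299 genes). Symbols are those of the platform annotation, brought up to date with RefSeq by Entrez identifier. Each gene was tested against 0 with limma 3.58.1 in R 4.3.3 (lmFit, eBayes, two-sided) with Benjamini-Hochberg adjustment at 0.05. The difference between the orientations of a pair, divided by 2, and the female against the male pairs were tested likewise. On simulated data for the comparison of double-null and apoE-null mice (4299 genes, 200 changed by 1 on the log2 scale, 10 simulations), limma recovered 96.2% of the changed genes, with 5.99% of calls false. The simulated noise was normal, and the change of 1 exceeded the mean of every member, of which Lum lay furthest from 0 (-0.69). The share recovered therefore does not tell how often a change of the size seen in the members would be called. Motif matches were exact.

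Members and lists were chosen with earlier results of these data known. The genes named are all members, Myd88, from each list the genes past the threshold or else the 2 with the smallest p, and the 5 genes most like the family median. Some others were named after their values were seen, as marked where they are given. The mice are numbered separately in the labels. The spread behind each p-value of the genotype comparison is that among the pairs with a value, from 3 to 5, which limma draws toward that of all genes. In the comparison of female and male pairs it comes from the 3 male pairs.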

Additional observations from a re-analysis of the deposited data

How the results depend on the processing

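No alternative called a member. Under 16 alternatives the number of members called stayed at 0. An adjusted p under 0.10 was 1 of these alternatives and was applied to the main fit alone. Lum kept its direction under all 15 (log2 -0.80 to -0.57, adjusted p 0.0793 to 0.508), and so did Bgn (-0.62 to -0.15) and Aspn (0.07 to 0.69). With single arrays and the mouse pair as a replicate block, Lum stayed at -0.69 (adjusted p = 0.0793), which is under 0.10 but not under 0.05. The mean of Dcn turned to -0.21 when double-null RNA was in channel 2 and lay between -0.079 and 0.098 when a pair was left out. That of Fmod turned to 0.057 in the male pairs alone. That of Ogn turned to 0.13 when double-null RNA was in channel 1 and lay between -0.24 and 0.027 when a pair was left out. The family median moved between -0.36 and 0.02. The count of collagen and partner genes called, 1, was 0 without any 1 pair, on channel 1 arrays, with the replicate block and with pair values from 1 array allowed. Proteoglycan and hyaluronan genes had 1 call on the arrays of either orientation, which was Has1 each time, in opposite directions. It was at -1.09 on channel 1 arrays and 2.19 on channel 2 arrays (limma adjusted p = 0.0400 and 0.00132). Macrophage markers had 1 call without pair 5 and 1 in the male pairs alone (between 0 and 1 when a pair was left out). On channel 1 arrays the signs of Loxl2 (-0.28, where a further probe with values on 3 of these arrays is averaged in), Papss1 (-0.010), Has1 (-1.09), Matn1 (-0.10), Myl1 (-0.071) and Actc1 (0.016) turned. In the male pairs alone those of Papss1 (-0.12) and Comp (0.11) did. When a pair was left out, Comp lay between -0.31 and 0.086 and Matn1 between -0.048 and 0.23. The cause of these changes was not tested. Over all genes limma called 35, between 0 and 17 when a pair was left out, 99 on channel 2 arrays and 7 with pair values from 1 array allowed. The alternatives for lists, dye and sex were chosen after seeing the data. Of 26 genes named from the lists, 12 moved by over 1.5 times without 1 pair, 8 of them without pair 1. Tlr2, Lrp1, C1qa and Myl1 are among the 26 but could not move. Each had 3 pair values, the number required, and was not tested without any of these. Of 31 genes of glycosaminoglycan synthesis, 14 had no annotated probe and 14 too few values.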
